A study of Mus musculus with 30 samples.

Results

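The genes that make, bind and sense retinoic acid were followed through MyoD-driven muscle conversion of fibroblasts. The set holds 8 genes. Aldh1a1, Aldh1a2 and Aldh1a3 encode the oxidases that turn retinaldehyde into retinoic acid, Crabp1 and Crabp2 encode cytosolic proteins that bind retinoic acid, and Rara, Rarb and Rarg encode its nuclear receptors. They were taken by gene symbol, which the platform annotation assigned to 11 of 45037 probe sets, and they are 8 of the 18193 genes measured. The set was chosen from the signals of these same arrays, with earlier results known and no contrast named. Every contrast therefore counts as used, and the values of the 8 genes are given as a description with no test.

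Cells convert retinol to retinaldehyde with alcohol and retinol dehydrogenases, and retinaldehyde to retinoic acid with the Aldh1a enzymes. Retinoic acid then either reaches a nuclear receptor of the RAR family, which sits on DNA together with an RXR partner, or is broken down by Cyp26 enzymes. Retinoic acid is best known for patterning the embryo, and in myogenic cells it is known to affect the step from dividing precursor to differentiated muscle.

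The cells were mouse embryonic fibroblasts from MyoD-/-/Myf5-/- mice, so all groups share the labelled loss of these muscle determination genes. A retrovirus gave them ER-MyoD wt (mouse MyoD fused to the hormone-binding domain of the estrogen receptor), ER-MyoD RRR (the same fusion with lysines 99, 102 and 104 mutated, which prevents their acetylation) or no insert (empty retrovirus). Differentiation medium with beta-estradiol, the ligand of the fusion, was given for 0, 6, 12 or 24 h. Each of the 10 groups held 3 arrays. The 0 h time point came from ER-MyoD wt alone, the other times from all 3 constructs, so differences from 0 h hold medium, hormone and MyoD together. The sources used here name no retroviral promoter and no share of transduced cells. They do not say that the 3 replicates were separate cultures, so the p-values below measure only the spread between these arrays, which may be technical.

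All values are signal intensities of single arrays on a linear scale, and the array medians lay between 38.0 and 64.1. Differences between groups are given on the log2(signal + 16) scale after quantile normalization, with the standard error of the limma fit and n = 3 arrays per group; this scale understates the change of genes with low signal. Groups of 3 arrays often do not overlap: after normalization this held for 17.6% to 39.9% of all genes in the comparisons below. Probe sets bind with different strength, so levels of different genes are not compared. The Myod1 group means ranged from 471 to 1185 in cells with either fusion and from 167 to 228 with the empty retrovirus. The Myf5 probe set gave group means of 201 to 494, and its place relative to the deleted part of the gene is not known here. Replicates correlated at r = 0.946 to 0.973 over genes, and 27 of 30 arrays were nearest to an array of their own group. ER-MyoD RRR 6 h replicate 2, empty retrovirus 12 h replicate 1 and ER-MyoD wt 24 h replicate 3 stood apart most from their groups. All 12 fibroblast markers were measured, with at most 1 group mean under 50 in any group, and their summed signal was 34460 to 79530 over the 30 arrays. The 12 skeletal muscle markers summed to 238 to 289 in empty retrovirus cells at 24 h, to 33600 to 37220 in ER-MyoD RRR and to 49310 to 57990 in ER-MyoD wt. The 7 smooth muscle markers summed to 1315 to 5707 with the empty retrovirus and to 7026 to 28520 with either fusion, and the lists for adipocytes, bone and cartilage, nerve, blood, endothelium and epithelium stayed between 73.9 and 1418.

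Aldh1a1 (probe set 1416468_at) was the member that differed most between groups. Its signal was low in empty retrovirus cells at all times and in ER-MyoD wt at 0 and 6 h, and it was high with either fusion at 24 h, most of all with ER-MyoD RRR. The 3 empty retrovirus arrays gave 0.942, 9.60 and 9.38 at 6 h, 7.08, 1.51 and 2.98 at 12 h and 7.98, 9.64 and 4.58 at 24 h. ER-MyoD wt arrays gave 3.41, 2.01 and 10.7 at 0 h, 6.60, 1.51 and 2.53 at 6 h, 62.3, 45.3 and 10.7 at 12 h and 118, 126 and 20.5 at 24 h. ER-MyoD RRR arrays gave 2.13, 16.8 and 8.25 at 6 h, 43.6, 59.0 and 39.6 at 12 h and 327, 333 and 478 at 24 h. Through 6 h all groups overlapped, and from 12 h on every array with a fusion lay above every empty retrovirus array of the same time.

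At 24 h the Aldh1a1 mean was 379 ± 85.7 (SD, n = 3) in ER-MyoD RRR and 88.2 ± 58.7 in ER-MyoD wt, 4.30-fold apart on the linear scale. The log2 difference was 2.20 ± 0.41, and no array of one group reached into the other, as for 19.7% of all genes after normalization. ER-MyoD wt 24 h replicate 3, one of the arrays that stood apart, was the low one of its group, and without it the log2 difference was 1.49. At 6 and 12 h the fusions differed by 0.32 ± 0.41 and 0.37 ± 0.41, with overlapping arrays, and without ER-MyoD wt 12 h replicate 3 the 12 h value was -0.08. Without ER-MyoD RRR 6 h replicate 2 the 6 h value was 0.11, and that of ER-MyoD RRR minus empty retrovirus was -0.02 in place of 0.19 ± 0.41. Against empty retrovirus cells the 24 h log2 difference was 4.10 ± 0.41 for ER-MyoD RRR and 1.90 ± 0.41 for ER-MyoD wt (2.62 without replicate 3). Because the control signal is near the pseudocount, these log2 sizes depend on it: with a pseudocount of 1 they were 5.60 and 3.04, and with 64 they were 2.64 and 1.0. In order of group means, ER-MyoD RRR at 24 h stood clear of the next group, and each of the other neighbours in the order (ER-MyoD wt 24 h, ER-MyoD RRR 12 h, ER-MyoD wt 12 h, then the 6 groups with means under 10) overlapped.

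The sequence just before the annotated start is shown for 3 members: for Aldh1a1 and Crabp1, whose log2 differences between the fusions at 24 h are given above and below, and for Rarb, whose window holds a receptor element. MyoD binds E-boxes, and RAR with RXR binds paired short core motifs, so both were searched on both strands. RefSeq windows (build GRCm38.p6) held 6 of the 8 members with 11 start sites; Aldh1a3 and Crabp2 were not among them. Each line below is the 250 bases before the start, 5′ to 3′ on the gene's strand; capitals mark E-boxes (CANNTG) and, in Rarb, also the paired cores. The first Aldh1a1 window is chr19:20492333-20492582 and the second chr19:20601718-20601967, both on the plus strand; Crabp1 is at chr9:54764498-54764747 on the plus strand, and Rarb at chr14:16575477-16575726 on the minus strand.
Aldh1a1 first start: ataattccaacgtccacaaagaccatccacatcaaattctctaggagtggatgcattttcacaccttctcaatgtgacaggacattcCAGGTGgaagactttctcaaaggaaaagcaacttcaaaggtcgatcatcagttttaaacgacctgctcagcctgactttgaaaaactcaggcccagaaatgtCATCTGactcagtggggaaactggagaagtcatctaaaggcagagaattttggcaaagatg
Aldh1a1 second start: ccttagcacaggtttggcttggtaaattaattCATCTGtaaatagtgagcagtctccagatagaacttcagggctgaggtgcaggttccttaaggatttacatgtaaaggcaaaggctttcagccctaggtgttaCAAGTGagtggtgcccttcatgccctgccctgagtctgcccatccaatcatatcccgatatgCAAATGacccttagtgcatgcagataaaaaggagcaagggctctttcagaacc
Crabp1: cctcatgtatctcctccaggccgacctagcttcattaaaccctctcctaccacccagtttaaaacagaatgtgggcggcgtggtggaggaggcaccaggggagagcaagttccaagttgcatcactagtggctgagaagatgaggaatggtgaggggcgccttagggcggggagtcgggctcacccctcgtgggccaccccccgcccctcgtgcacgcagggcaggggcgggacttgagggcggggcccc
Rarb: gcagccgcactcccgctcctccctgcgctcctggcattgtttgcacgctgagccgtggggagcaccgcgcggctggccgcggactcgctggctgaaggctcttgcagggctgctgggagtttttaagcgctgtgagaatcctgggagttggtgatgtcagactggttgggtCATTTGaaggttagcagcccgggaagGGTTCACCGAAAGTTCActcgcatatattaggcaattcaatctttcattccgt

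The first Aldh1a1 window holds 2 E-boxes, CAGGTG at position -163 and CATCTG at -61 from the start, and the second holds 3, CATCTG at -218, then CAAGTG at -115 and CAAATG at -53. Positions are those of the first base of a match on the gene's strand, counted back from the start. The Crabp1 window holds 0 E-boxes of these letters. CANNTG is present in 66.2% of the 32851 windows of this length, CAGGTG (either strand) in 17.2% and CAGCTG in 13% of them, so a match is common. The Rarb window holds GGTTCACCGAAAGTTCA at -53, which is a pair of cores in the same direction with 5 bases between them. The cores searched were AGGTCA, its variant AGTTCA, then also GGTTCA, and lastly GGGTCA, in any pair. Such pairs at that spacing occur in 29 of the 32851 windows, or 0.0883%. AGTTCA alone, which is the second core of the pair, is found in 11.8% of windows. These matches describe letters in the reference sequence and were not tested for binding.

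Crabp1 (1448326_a_at), which holds retinoic acid in the cytosol, was bright on all 30 arrays, and its mean was higher in ER-MyoD RRR than in ER-MyoD wt at each time. ER-MyoD wt arrays gave 8024, 8719 and 7868 at 0 h, 6730.2, 4412 and 4979.5 at 6 h, 5869, 4719.5 and 5698 at 12 h and 3454, 2489 and 2647 at 24 h. ER-MyoD RRR arrays gave 8681, 7023 and 9850.0 at 6 h, 7580.3, 6787 and 7563 at 12 h and 6779, 4417 and 5839 at 24 h. Empty retrovirus arrays gave 4590.2, 4466 and 4231 at 6 h, 4857, 4711 and 4782 at 12 h and 5395, 5056 and 6966 at 24 h. ER-MyoD wt at 24 h was the lowest group and did not overlap any other; ER-MyoD RRR at 6 h and ER-MyoD wt at 0 h were the highest and overlapped each other. In the order of means between them, ER-MyoD RRR 12 h, empty retrovirus 24 h, ER-MyoD RRR 24 h, ER-MyoD wt 12 h, ER-MyoD wt 6 h and empty retrovirus 12 h each overlapped the next, and empty retrovirus 12 h lay apart from empty retrovirus 6 h.

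The Crabp1 log2 difference of ER-MyoD RRR minus ER-MyoD wt was 0.57 ± 0.19 at 6 h, 0.55 ± 0.19 at 12 h and 1.01 ± 0.19 at 24 h. The deposited signals of the fusions did not overlap at any of the 3 times, while after normalization the 6 h arrays did. Relative to empty retrovirus cells the signs differed by time: ER-MyoD RRR stood higher at 6 h (0.71 ± 0.19) and 12 h (0.66 ± 0.19), and ER-MyoD wt stood lower at 24 h (-1.19 ± 0.19). ER-MyoD RRR at 24 h differed by -0.18 ± 0.19 and ER-MyoD wt at 6 and 12 h by 0.14 ± 0.19 and 0.11 ± 0.19, all with overlapping arrays. Without ER-MyoD RRR 6 h replicate 2, the 6 h differences of ER-MyoD RRR were 0.73 from ER-MyoD wt and 0.87 from the empty retrovirus. The latter was 1.09 with median centring in place of quantile normalization. Between 0 and 24 h in ER-MyoD wt the difference was -1.39 ± 0.19, a linear ratio of 0.349.

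Fibroblast markers differed in the same comparisons. Their summed signal at 24 h was 34460 to 44930 in ER-MyoD wt, 51540 to 60050 in ER-MyoD RRR and 63940 to 79530 with the empty retrovirus. Of the 12 markers, 8 were higher and 0 lower in ER-MyoD RRR than in ER-MyoD wt at 24 h, and 0 were higher and 10 lower in ER-MyoD wt than with the empty retrovirus (limma, adjusted p under 0.05). At 6 h, 1 of them was higher and 2 were lower in ER-MyoD RRR than in ER-MyoD wt, and at 12 h 3 were higher and 0 lower. The part of fibroblast content in the Crabp1 and Aldh1a1 differences was not tested, and in these bulk samples fewer cells of a type and less RNA per cell cannot be told apart.

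Crabp2 (1451191_at), the other cytosolic binding protein, was dim. Its signal was 3.70 to 22.5 over the 30 arrays and above the array median on 0 of them. Its lowest group was ER-MyoD RRR at 12 h, with 3.70, 8.15 and 6.44, against 11.9, 11.2 and 8.87 in ER-MyoD wt and 13.1, 14.8 and 12.3 with the empty retrovirus. Those arrays did not overlap, and the log2 differences were -0.28 ± 0.18 and -0.31 ± 0.18. Its differences of ER-MyoD wt minus empty retrovirus at 6 and 12 h, which were -0.02 and -0.04, changed sign with median centring.

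**Figure D1:**
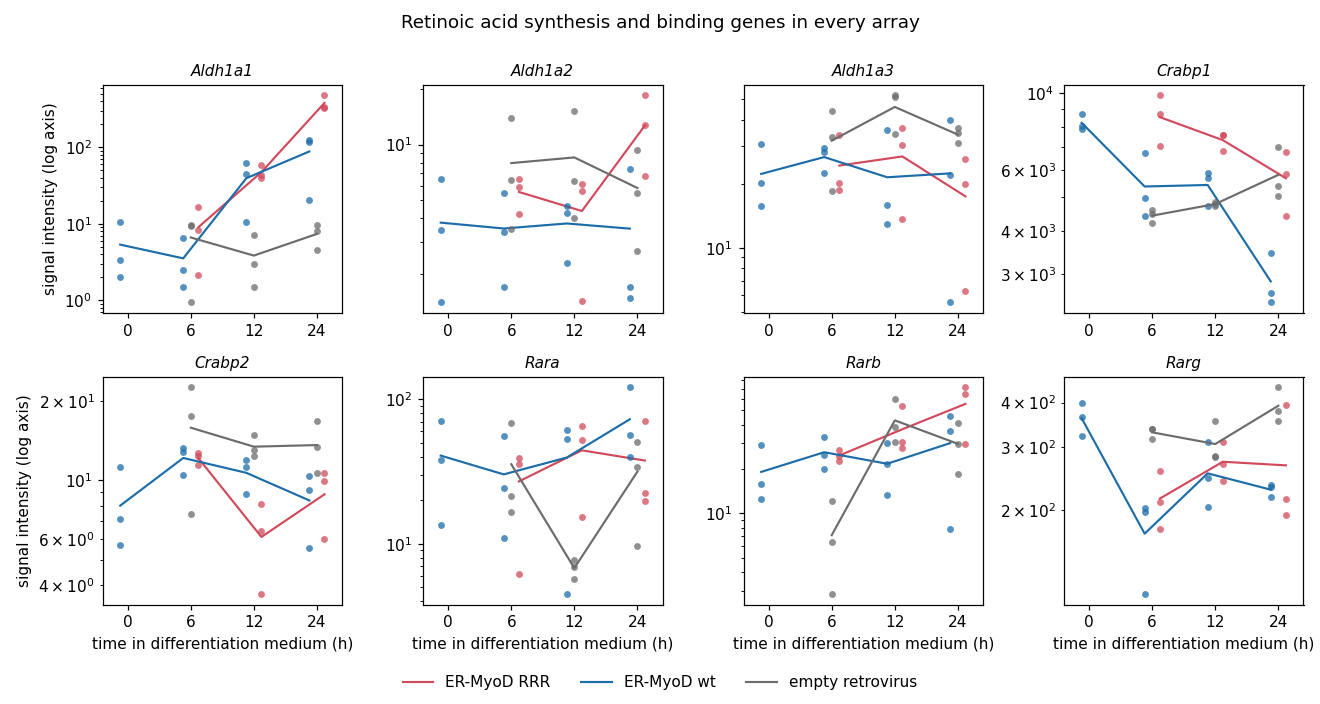
Signal intensity of each member (log axis, own range per panel) against time in differentiation medium (h, spaced evenly), with 1 point per array and lines through the means of 3 arrays of ER-MyoD wt, ER-MyoD RRR and empty retrovirus; for Aldh1a3 and Rarg the probe set with the highest mean is drawn. Aldh1a1 reaches 327 to 478 in ER-MyoD RRR at 24 h while empty retrovirus arrays stay under 10, and Crabp1 is lowest in ER-MyoD wt at 24 h at 2489 to 3454.

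The other oxidases were dim. Aldh1a2 (1422789_at), the main source of retinoic acid in early embryos, gave 1.41 to 18.5 and lay above the array median on 0 of 30 arrays. At 24 h it read 6.79, 12.8 and 18.5 in ER-MyoD RRR, 1.49, 1.72 and 7.37 in ER-MyoD wt and 9.35, 5.49 and 2.67 with the empty retrovirus. The fusions overlapped on the deposited scale, and after normalization they did not, with a log2 difference of 0.49 ± 0.18. Its 10 group means spanned 0.49 on that scale, against 4.37 for Aldh1a1. Aldh1a3 has 3 probe sets (1417642_at, 1427395_a_at and 1448789_at), with signals of 5.53 to 52.0, 4.30 to 22.1 and 1.25 to 23.6, and only the first exceeded the array median, on 1 of 30 arrays. That probe set read 52.0, 34.2 and 51.3 at 12 h with the empty retrovirus and 35.5, 15.9 and 12.9 in ER-MyoD wt, a log2 difference of -0.61 ± 0.31. For the same comparison the second probe set gave -0.17 ± 0.19 and the third 0.47 ± 0.26, so the 3 disagreed in sign. At 24 h ER-MyoD RRR minus empty retrovirus was -0.65 ± 0.31 by the first, with arrays apart, and 0.14 ± 0.19 and 0.34 ± 0.26 by the others, with arrays overlapping.

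Among the receptors, Rarg (1419415_a_at) was the one above the array median on all 30 arrays. It was lower with ER-MyoD wt than with the empty retrovirus and lower than in the same cells at 0 h. The 0 h arrays of ER-MyoD wt read 323, 364 and 399, and later ones 117, 203 and 197 at 6 h, 205, 310.3 and 247 at 12 h and 235, 219 and 232 at 24 h. Empty retrovirus arrays read 316, 338 and 337 at 6 h, 354, 282 and 283 at 12 h and 378, 355 and 442 at 24 h. ER-MyoD RRR arrays read 258, 178 and 212 at 6 h, 269, 241 and 309.8 at 12 h and 392, 194 and 215 at 24 h. All 9 later ER-MyoD wt arrays lay below the 3 at 0 h, and the fusions overlapped each other at each time. In the order of the 10 group means, from empty retrovirus 24 h at the top to ER-MyoD wt 6 h at the bottom, each group overlapped the next.

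The Rarg log2 difference of ER-MyoD wt minus empty retrovirus was -0.80 ± 0.20 at 6 h, -0.25 ± 0.20 at 12 h and -0.70 ± 0.20 at 24 h, with overlap at 12 h alone. For ER-MyoD RRR minus empty retrovirus it was -0.48 ± 0.20, -0.16 ± 0.20 and -0.59 ± 0.20, and the 12 h value turned to 0.03 with median centring. Without empty retrovirus 12 h replicate 1 the 12 h values were -0.13 for ER-MyoD wt and -0.04 for ER-MyoD RRR. ER-MyoD RRR minus ER-MyoD wt gave 0.32 ± 0.20, 0.09 ± 0.20 and 0.11 ± 0.20, and ER-MyoD wt minus its 0 h arrays -1.0 ± 0.20, -0.51 ± 0.20 and -0.65 ± 0.20. The second Rarg probe set (1419416_a_at), at 27.7 to 199, gave smaller or opposite differences for ER-MyoD wt minus empty retrovirus: -0.21 ± 0.33, 0.47 ± 0.33 and -0.39 ± 0.33, with overlapping arrays each time. For ER-MyoD RRR minus empty retrovirus it gave 0.29 ± 0.33 at 6 h and 0.55 ± 0.33 at 12 h, of opposite sign to the first, and -0.56 ± 0.33 at 24 h. Its differences from 0 h in ER-MyoD wt were -0.58 ± 0.33, -0.66 ± 0.33 and -0.36 ± 0.33, of the same sign as those of the first.

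Rarb (1454906_at), itself a known target of retinoic acid through the element shown above, was dim, and exceeded the array median on 5 of 30 arrays. At 6 h it read 6.43, 2.83 and 12.1 with the empty retrovirus, 25.0, 33.0 and 20.1 in ER-MyoD wt and 27.0, 24.5 and 22.7 in ER-MyoD RRR, so the empty retrovirus arrays were the low ones and lay apart from both fusions. The log2 differences were 1.0 ± 0.32 and 0.94 ± 0.32. At 12 h the empty retrovirus arrays read 38.5, 30.6 and 59.3 and those of ER-MyoD wt 30.3, 21.6 and 13.3, a difference of -0.50 ± 0.32, and they overlapped after normalization but not before; without empty retrovirus replicate 1 it was -0.65. ER-MyoD RRR at 12 h read 28.0, 53.3 and 30.5, 0.53 ± 0.32 relative to ER-MyoD wt, and overlapped ER-MyoD wt on the deposited scale only. At 24 h Rarb read 64.4, 72.0 and 29.6 in ER-MyoD RRR, 7.87, 46.1 and 36.2 in ER-MyoD wt and 40.9, 29.7 and 18.5 with the empty retrovirus, and the groups overlapped.

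Rara (1450180_a_at) scattered widely within groups, from 4.47 to 122 over all arrays. At 12 h it read 6.92, 7.77 and 5.68 with the empty retrovirus, 61.3, 53.0 and 4.47 in ER-MyoD wt and 65.7, 52.2 and 15.4 in ER-MyoD RRR. Only ER-MyoD RRR lay apart from the empty retrovirus there, with a log2 difference of 1.42 ± 0.55, and in each of the other 11 comparisons the arrays overlapped. Without ER-MyoD RRR 6 h replicate 2 its 6 h difference of ER-MyoD RRR minus ER-MyoD wt was 0.35 in place of -0.12 ± 0.55. Across receptors, the empty retrovirus group was the lowest of 10 for Rarb at 6 h and for Rara at 12 h, and the highest for Rarg at 24 h.

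**Figure D2:**
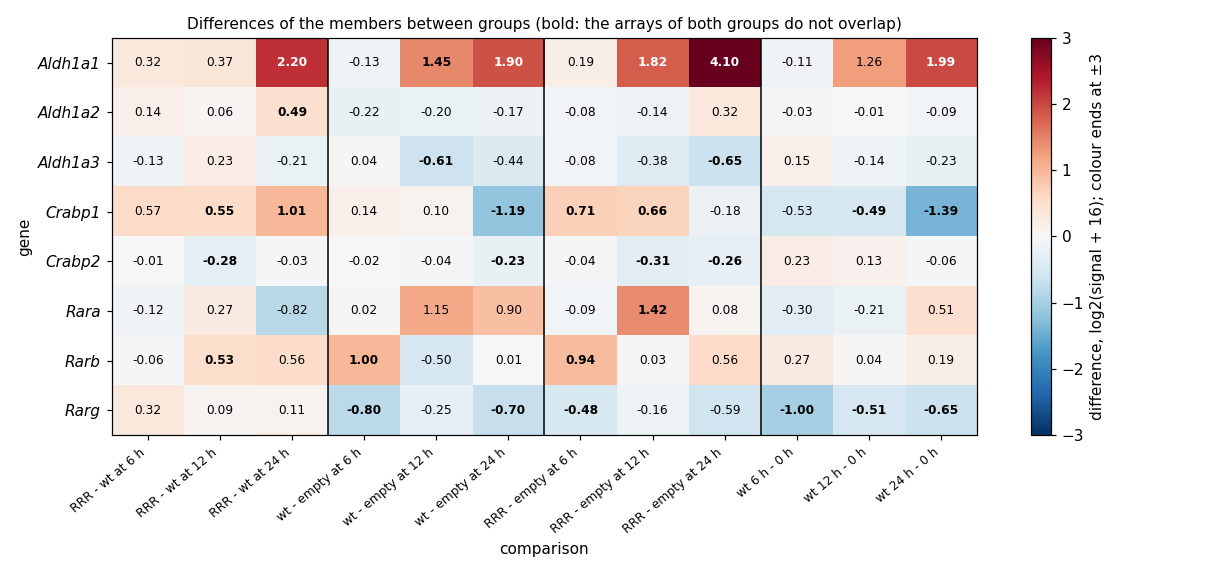
Difference of each member (rows) in each of the 12 comparisons (columns) as colour and number, on the log2(signal + 16) scale, with bold numbers where the normalized arrays of the groups do not overlap. Such lack of overlap held for 17.6% to 39.9% of all genes, depending on the comparison. The largest value is 4.10 for Aldh1a1 in ER-MyoD RRR minus empty retrovirus at 24 h, Rarg is negative in each comparison with the empty retrovirus or 0 h (12 h of ER-MyoD RRR turns sign with median centring), and the rows of Aldh1a2 and Crabp2 stay within 0.49 of 0.

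Counted over the 8 members, the normalized arrays of 2 groups did not overlap as follows, with the share of all genes in brackets. Nothing is read from these counts, because the choice of members used the same arrays. For ER-MyoD RRR minus ER-MyoD wt it was 0 members at 6 h (20.1%). At 12 h it was 2 higher and 1 lower (17.6%), and at 24 h 3 higher and 0 lower (19.7%). For ER-MyoD wt minus empty retrovirus it was 1 higher and 1 lower at 6 h (29.5%). At 12 h it was again 1 and 1 (27.8%), and at 24 h 1 and 3 (36.7%). For ER-MyoD RRR minus empty retrovirus it was 2 higher and 1 lower at 6 h (27.8%). At 12 h it was 3 and 1 (25%), and at 24 h 1 and 2 (34.2%). Relative to 0 h in ER-MyoD wt it was 0 higher and 1 lower at 6 h (35.1%). At 12 h it was 0 and 2 (35.3%), and at 24 h 1 and 2 (39.9%). The median of the 8 log2 differences of ER-MyoD RRR minus ER-MyoD wt was 0.07, 0.25 and 0.30 at 6, 12 and 24 h, beside 0.05, 0.01 and 0.00 over all genes. The comparisons with the empty retrovirus share their control arrays, as do those with 0 h, so they do not count as separate evidence.

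The members did not share one course. Over the 10 group means, as a description, the highest Pearson correlation between members was 0.54, of Aldh1a3 with Crabp2, both dim, and the lowest was -0.83, of Aldh1a1 with Aldh1a3. Among the 8128 genes whose group means span at least 1, those with the course most like Aldh1a1 were Cpa1 (r = 0.98), Chrna6 (0.96) and Il13ra2 (0.94), and 22 genes exceeded 0.9. For Crabp1 they were Prdx4 (0.93), Svep1 (0.92) and 1700036A12Rik (0.91), and for Rarg Bbc3 (0.93), Hoxb2 (0.91) and Aldh2 (0.91). For Rarb they were Calcrl (0.90), Klf12 (0.87) and Entpd7 (0.86), and for Rara Cd300ld (0.93), Tmem242 (0.87) and Hyal2 (0.87). The 10 points share normalization and arrays, and no p is given.

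The rest of the pathway was read from a list of 82 other genes, of which 71 were measured, and these were tested. This list, too, was chosen with earlier results of these data known, which limits what its counts and p-values can show. In comparisons of constructs, rose and fell mean higher and lower than in the second group at the same time. Between the fusions few genes of the list passed. In ER-MyoD RRR minus ER-MyoD wt, 1 of 71 rose at 6 h, Hoxb4, a retinoic acid responsive homeobox gene (0.69 ± 0.16, adjusted p = 0.0107; not past the threshold in 4 of 16 alternative settings). It read 167, 205 and 161 in ER-MyoD RRR and 97.0, 87.7 and 129 in ER-MyoD wt. Without ER-MyoD wt replicate 1 or 2 or ER-MyoD RRR replicate 2 the 6 h count was 0, and it was 2 when ER-MyoD RRR replicate 1 was left out. At 24 h 1 fell, the nuclear receptor coactivator Ncoa1 (-0.54 ± 0.16, adjusted p = 0.0448), a call that did not hold in 11 of 16 alternative settings. Without ER-MyoD wt replicate 1 or ER-MyoD RRR replicate 2 or 3 the 24 h count was 0, and it was 2 when ER-MyoD RRR replicate 1 was left out. At 12 h 0 of 71 passed in the limma fit, and 11 did at an unadjusted p under 0.05. Those shares of 1.41%, 0 and 1.41% stand beside 3.66%, 1.75% and 5.38% of all genes. For Rxra, a partner of the receptors, the 12 h difference was -0.57 ± 0.17, adjusted p = 0.0917, and for Rxrb, another, it was -0.59 ± 0.22, adjusted p = 0.233; neither passed.

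Against the empty retrovirus more of the pathway differed, as did more of all genes. In ER-MyoD wt 6 rose and 8 fell at 6 h (19.7% of 71), 8 rose and 8 fell at 12 h (22.5%), and 8 rose and 10 fell at 24 h (25.4%), beside 12.7%, 15.4% and 25.4% of all genes. In ER-MyoD RRR 6 rose and 5 fell at 6 h (15.5%), 4 rose and 2 fell at 12 h (8.45%), and 7 rose and 8 fell at 24 h (21.1%), beside 13.8%, 10.1% and 19.0%. The median log2 difference of the 71 genes lay between -0.10 and 0.09 in these 6 comparisons, beside -0.02 to 0.05 over all genes. The balance of rises and falls depends on scaling. With median centring it was 6 and 4 for ER-MyoD wt at 6 h, 4 and 1 for ER-MyoD RRR at 12 h and 3 and 10 at 24 h, and on the deposited signals it was 2 and 6 for ER-MyoD RRR at 6 h and 4 and 4 at 12 h. Median centring moved the median of all genes from -0.01 to 0.10 for ER-MyoD wt at 6 h and from -0.02 to 0.10 for ER-MyoD RRR at 12 h. Without ER-MyoD RRR 6 h replicate 2, 7 genes passed in ER-MyoD RRR minus empty retrovirus at 6 h in place of 11; without replicate 3 it was 4, and without empty retrovirus 6 h replicate 1 or 2 it was 7 or 6.

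Relative to 0 h in ER-MyoD wt, 4 rose and 6 fell at 6 h (14.1%), 6 rose and 8 fell at 12 h (19.7%; 9 and 8 on the deposited signals), and 11 rose and 10 fell at 24 h (29.6%), beside 17.7%, 20.4% and 30.7% of all genes.

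The counts of the single lists below stand beside the shares of all genes that passed against the empty retrovirus. At 6, 12 and 24 h these were 12.7%, 15.4% and 25.4% in ER-MyoD wt and 13.8%, 10.1% and 19.0% in ER-MyoD RRR. Of 9 genes for uptake, binding and storage of retinol, 0 passed at 6 h in either fusion against the empty retrovirus, 1 fell at 12 h in ER-MyoD wt, and 1 rose at 24 h in each fusion. The one that fell was Rlbp1, a retinaldehyde-binding protein (-1.02 ± 0.22, adjusted p = 0.00111). It was dim, with 12 h means of 18.9 in ER-MyoD wt and 62.6 with the empty retrovirus. At 6 and 24 h its empty retrovirus means were 44.2 and 33.3. The one that rose was Dgat1, an acyltransferase that can esterify retinol (0.57 ± 0.14, adjusted p = 0.00259 in ER-MyoD wt; 0.56 ± 0.14, adjusted p = 0.00453 in ER-MyoD RRR, where it did not pass with median centring). The retinol carrier Rbp4 and the retinol receptor Stra6, both on this list, were dim and passed in 0 of 12 comparisons each.

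Of the 19 measured genes for retinol and retinaldehyde interconversion, 2 rose and 2 fell for ER-MyoD wt minus empty retrovirus at 6 h, 3 and 1 at 12 h, and 1 and 3 at 24 h. The counts with ER-MyoD RRR were 2 and 0, 2 and 0, and 1 and 2. Over all genes 12.7%, 15.4% and 25.4% passed in ER-MyoD wt and 13.8%, 10.1% and 19.0% in ER-MyoD RRR. Adh7, an alcohol dehydrogenase active on retinol, rose in both fusions at 12 h (1.53 ± 0.24, adjusted p = 1.99e-05 in ER-MyoD wt; 1.0 ± 0.24, adjusted p = 0.0051 in ER-MyoD RRR) and at 24 h (1.48 ± 0.24, adjusted p = 1.65e-05; 1.08 ± 0.24, adjusted p = 0.00133). At 24 h it read 406, 337 and 579.6 in ER-MyoD wt, 323, 332 and 325 in ER-MyoD RRR and 136, 166 and 185 with the empty retrovirus, with no overlap of the control with either. Adh1, a second such enzyme, was lower than with the empty retrovirus at 24 h in ER-MyoD wt (-1.79 ± 0.30, adjusted p = 2.26e-05) and in ER-MyoD RRR (-1.12 ± 0.30, adjusted p = 0.00673). Its empty retrovirus means were 51.7, 102.7 and 229 at 6, 12 and 24 h. Those of ER-MyoD wt were 53.4, 48.45 and 53.75, and those of ER-MyoD RRR 55.0, 42.7 and 99.6. Rdh10, the enzyme that makes most embryonic retinaldehyde, passed in ER-MyoD wt minus empty retrovirus only at 6 h (-0.45 ± 0.13, adjusted p = 0.0156; lost in 3 of 16 settings). In ER-MyoD wt it rose from 0 to 24 h (1.32 ± 0.13, adjusted p = 1.89e-09), to 505, 426 and 466, while empty retrovirus arrays at 24 h read 403, 451 and 355. Dhrs3, which returns retinaldehyde to retinol, fell in ER-MyoD wt from 0 to 6 h (-1.08 ± 0.25, adjusted p = 0.00243) and from 0 to 24 h (-1.16 ± 0.25, adjusted p = 0.000558). Against the empty retrovirus it rose in ER-MyoD wt at 12 h (0.92 ± 0.25, adjusted p = 0.0105; lost in 3 of 16 settings). Rdh11, a retinol dehydrogenase, rose at 6 h (1.36 ± 0.21, adjusted p = 2.89e-05 in ER-MyoD wt; 0.73 ± 0.21, adjusted p = 0.0194 in ER-MyoD RRR, a call lost in 6 of 16 alternative settings) and 12 h (1.51 ± 0.21, adjusted p = 4.52e-06; 1.22 ± 0.21, adjusted p = 0.000172), and fell at 24 h in ER-MyoD wt (-0.82 ± 0.21, adjusted p = 0.00394). From 6 to 24 h the difference of ER-MyoD wt from the empty retrovirus itself changed for 11 of the 71 genes, beside 14.7% of all genes.

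Of 3 genes listed as further retinaldehyde oxidases, 0 passed at 6 or 12 h and 1 rose in each fusion at 24 h. At 24 h 25.4% of all genes passed in ER-MyoD wt and 19.0% in ER-MyoD RRR. The gene that rose was Aldh1a7, a close relative of Aldh1a1, which was also brightest at 24 h with either fusion. It read 188, 189.9 and 196 in ER-MyoD wt, 263, 259 and 250.1 in ER-MyoD RRR and 40.9, 28.9 and 25.1 with the empty retrovirus at 24 h. It rose against the empty retrovirus in both fusions at that time (2.22 ± 0.26, adjusted p = 7.87e-08 and 2.59 ± 0.26, adjusted p = 1.08e-08), and did not pass in ER-MyoD RRR minus ER-MyoD wt (0.38 ± 0.26, adjusted p = 0.505). Within ER-MyoD wt it rose from 0 to 12 h (1.20 ± 0.26, adjusted p = 0.000808) and 24 h (2.79 ± 0.26, adjusted p = 6.63e-10). ER-MyoD wt 24 h replicate 3, low for Aldh1a1 at 20.5, was in the range of the others for Aldh1a7 at 196. Whether either probe set also binds the transcript of the other gene was not tested, nor was the activity of the Aldh1a7 enzyme on retinaldehyde.

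Cyp26b1, which breaks retinoic acid down, had the largest rise of the 71 genes at 6 h in both fusions. It read 199, 203 and 202 in ER-MyoD wt at 6 h, 155, 65.3 and 149.6 in ER-MyoD RRR and 20.2, 40.4 and 5.84 with the empty retrovirus, with no overlap between fusions and control. Against the empty retrovirus it rose at 6 h (2.71 ± 0.42, adjusted p = 2.56e-05 in ER-MyoD wt; 2.03 ± 0.42, adjusted p = 0.00102 in ER-MyoD RRR) and at 12 h (2.62 ± 0.42, adjusted p = 3.22e-05; 2.06 ± 0.42, adjusted p = 0.00108). At 24 h it did not pass (0.57 ± 0.42, adjusted p = 0.385; 0.57 ± 0.42, adjusted p = 0.406). Its ER-MyoD wt arrays at 0 h read 24.0, 85.5 and 12.8, and it rose from there to 6 h (2.06 ± 0.42, adjusted p = 0.000639). Cyp26a1, the related enzyme, was dim at 3.03 to 55.2 and passed in 0 of 12 comparisons. The difference of ER-MyoD RRR minus ER-MyoD wt for Cyp26b1 was -0.68 ± 0.42, adjusted p = 0.461 at 6 h.

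Of 7 genes for RXR partners and alternative receptors, 1 rose and 0 fell in ER-MyoD wt at 6 h and 12 h and 1 rose and 2 fell at 24 h. The counts with ER-MyoD RRR were 1 and 0, 0 and 0, and 1 and 1. Over all genes 12.7%, 15.4% and 25.4% passed in ER-MyoD wt and 13.8%, 10.1% and 19.0% in ER-MyoD RRR. Rxra rose for ER-MyoD wt minus empty retrovirus at 12 h (0.88 ± 0.17, adjusted p = 0.000261) and 24 h (0.59 ± 0.17, adjusted p = 0.00866; lost in 2 of 16 settings) and in ER-MyoD RRR at 24 h (0.70 ± 0.17, adjusted p = 0.00309; lost in 1 of 16 settings). Rxrb and Rxrg passed in 0 of 12 comparisons. Fabp5, which carries retinoic acid to the receptor Ppard, fell at 24 h in ER-MyoD wt (-1.70 ± 0.15, adjusted p = 8.32e-10) and ER-MyoD RRR (-1.21 ± 0.15, adjusted p = 8.44e-07) relative to the empty retrovirus. It then read 1813, 2386 and 1729 in ER-MyoD wt, 2240.0, 2641 and 2936 in ER-MyoD RRR and 4694, 7199 and 5956 with the empty retrovirus. Ppard fell in ER-MyoD wt from 0 to 24 h (-1.33 ± 0.25, adjusted p = 0.000119). Among 9 coregulators, Ncoa1 rose in both fusions at all 3 times, most in ER-MyoD wt at 24 h (1.86 ± 0.16, adjusted p = 3.51e-10). In ER-MyoD wt it also rose from 0 to 24 h (3.01 ± 0.16, adjusted p = 1.3e-14). Ncoa2 rose from 0 to 24 h as well (2.47 ± 0.17, adjusted p = 1.14e-12). From 0 to 24 h in ER-MyoD wt 5 coregulators rose and 0 fell, where 30.7% of all genes passed. Against the empty retrovirus 1 rose and 1 fell in ER-MyoD wt at 6 h, 2 and 1 at 12 h, and 2 and 1 at 24 h. The counts with ER-MyoD RRR were 1 and 1, 1 and 0, and 2 and 1, and the shares of all genes are given above. The one that fell in ER-MyoD RRR at 6 h was Tbl1xr1 (-0.505 ± 0.147, adjusted p = 0.0188).

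The list of genes known to respond to retinoic acid held homeobox genes and orphan receptors that fell with the fusions. Of 21 genes, 1 rose and 5 fell for ER-MyoD wt minus empty retrovirus at 6 h, 1 and 5 at 12 h, and 2 and 4 at 24 h, with list medians of -0.24, -0.24 and 0.08 beside -0.01, -0.02 and 0.03 over all genes. In ER-MyoD RRR 1 rose and 4 fell at 6 h, 0 and 2 at 12 h, and 1 and 4 at 24 h. With median centring the counts in ER-MyoD wt were 1 and 3, 2 and 4, and 2 and 4, and on the deposited signals 1 and 6, 1 and 6, and 2 and 5. For ER-MyoD RRR they were 1 and 2, 0 and 1, and 0 and 4 with median centring, and 0 and 5, 0 and 3, and 1 and 4 on the deposited signals. The shares of all genes that passed in these comparisons, in either direction, were 12.7%, 15.4% and 25.4% for ER-MyoD wt and 13.8%, 10.1% and 19.0% for ER-MyoD RRR, and no test of the list was made. Those that fell include the homeobox genes Hoxb2 (-1.30 ± 0.21, adjusted p = 4.41e-05 in ER-MyoD wt at 6 h) and Hoxb4 (-1.38 ± 0.16, adjusted p = 1.82e-07) and the orphan receptors Nr2f2 at 6 h (-1.48 ± 0.36, adjusted p = 0.00488; lost in 1 of 16 settings) and Nr2f1 at 24 h (-1.42 ± 0.28, adjusted p = 0.000204). The laminin chain Lamb1 fell at 6, 12 and 24 h in ER-MyoD wt (-1.10 ± 0.18, adjusted p = 2.74e-05 at 12 h; the 6 h call was lost in 1 of 16 settings). The transglutaminase Tgm2 rose in ER-MyoD wt at 6 h (1.39 ± 0.29, adjusted p = 0.00104) and 24 h (1.15 ± 0.29, adjusted p = 0.00299). It also rose in ER-MyoD RRR at 6 h (0.965 ± 0.289, adjusted p = 0.0228). Btg2 rose in ER-MyoD RRR at 24 h (0.79 ± 0.21, adjusted p = 0.00654), and its difference in ER-MyoD wt was then 1.06. Hoxb4 read 192, 176 and 227 in ER-MyoD wt, 196, 199 and 215 in ER-MyoD RRR and 397, 499 and 373 with the empty retrovirus at 24 h, so the control lay above both fusions. The direction of this list is not read as a measure of retinoic acid. The fibroblast and muscle marker sums given above differ between the same groups, and their part in the pathway differences was not tested.

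**Figure D3:**
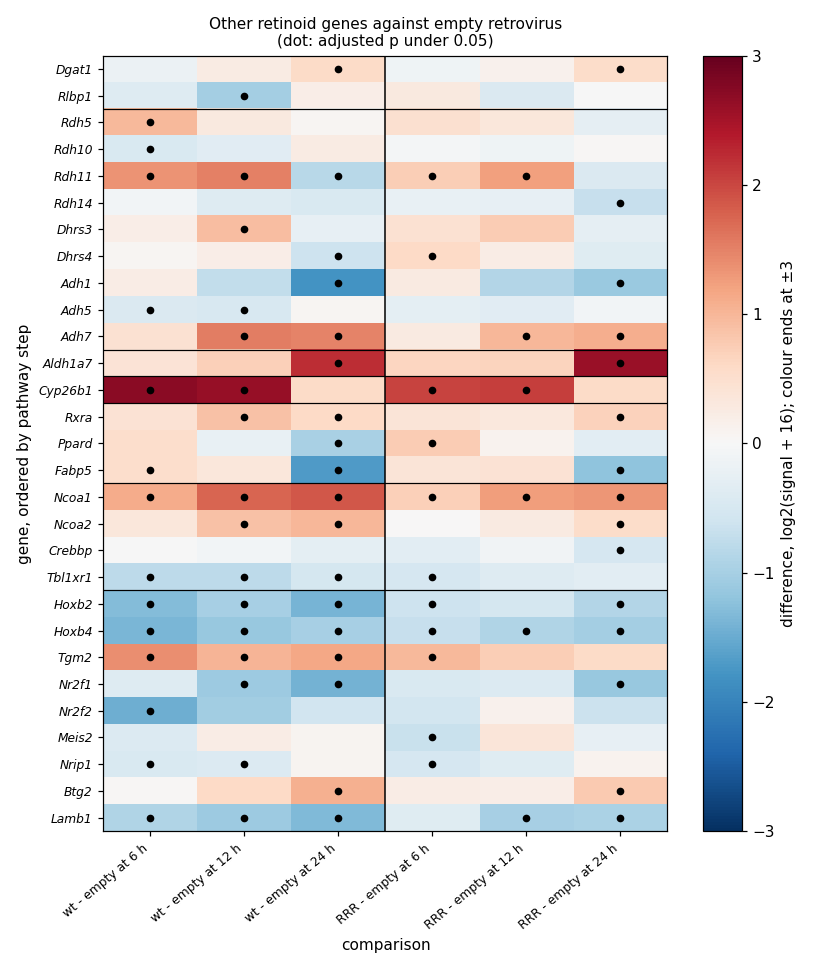
Log2(signal + 16) difference from the empty retrovirus (colour) for the 29 of 71 other pathway genes that passed in at least 1 of the 6 comparisons (columns), ordered by pathway step from retinol handling at the top to responsive genes at the bottom; dots mark an adjusted p under 0.05. Cyp26b1 passes at 6 and 12 h and Aldh1a7 at 24 h in both fusions, and Hoxb4 is lower in all 6.

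**Figure D4:**
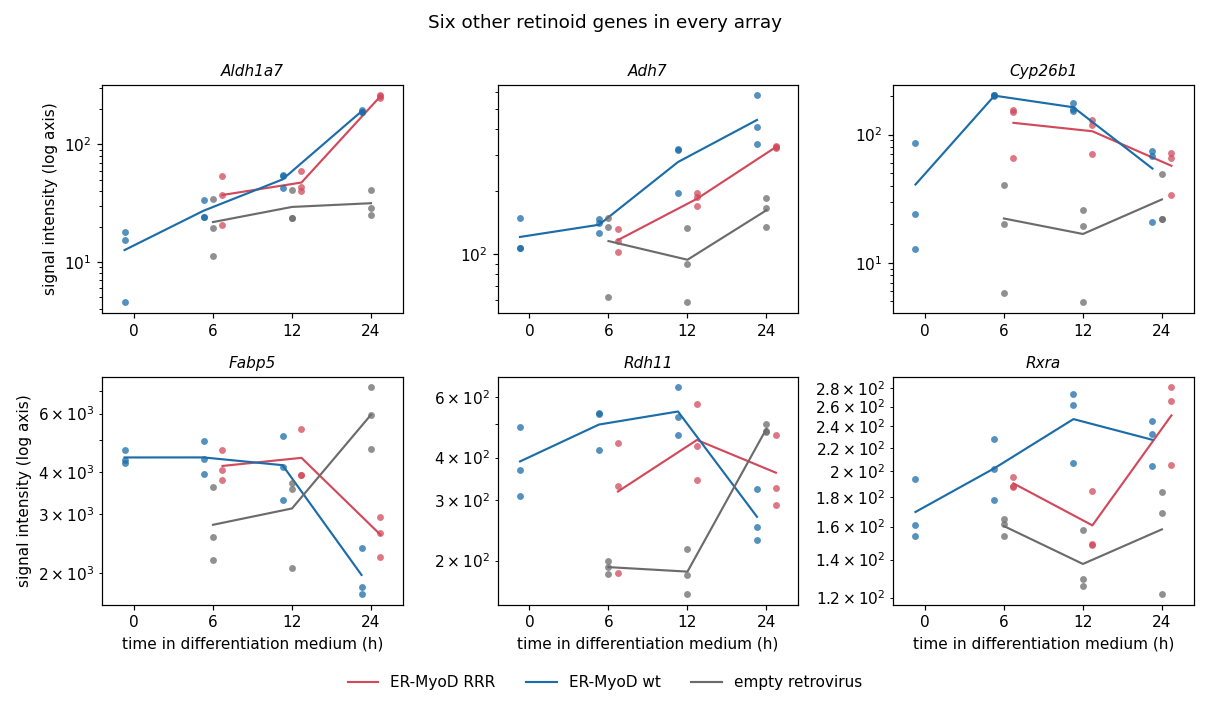
Signal intensity of 6 other pathway genes (log axis, own range per panel) against time (h, spaced evenly), 1 point per array with lines through the means of 3 arrays per group. Aldh1a7 reaches 188 to 196 in ER-MyoD wt and 250 to 263 in ER-MyoD RRR at 24 h, while Fabp5 and Rdh11 of the empty retrovirus lie below ER-MyoD wt at 6 h and above it at 24 h.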

How the data were processed

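The authors deposited an intensity on a linear scale for each probe set of each array (Affymetrix Mouse Genome 430 2.0, total RNA, biotin label, per the labels); the software and scaling behind it were not given in the sources used here, and the 2%-trimmed mean of each array was 150. The members and lists were chosen with earlier results of these data known. Of 45101 probe sets 64 controls were left out, 34945 had 1 symbol, 932 several and 9160 none here. A gene was its probe set of highest mean. Values were quantile-normalized, taken as log2(signal + 16) and fitted with limma 3.58.1 in R 4.3.3 (1 mean per group, all 30 arrays, 20 residual degrees of freedom, eBayes with trend, two-sided, Benjamini-Hochberg over 18193 genes, adjusted p under 0.05). Precision is limited by 3 arrays per group. Named genes were the members, a fixed set of pathway genes where measured, and in each comparison up to 4 largest rises and 4 largest falls past the threshold; further pathway genes named were chosen after their values were seen. For each member whose group means span at least 1, the 3 genes of highest correlation were named. The change of ER-MyoD wt minus empty retrovirus from 6 h to 24 h was added after the values were seen. Alternatives were pseudocounts of 1 and 64, other scalings, a mean signal of at least 50, all probe sets, fewer arrays, no trend and the replicate number as a block. The fit was tested on simulated data. Plots used matplotlib 3.10.9, pandas 2.3.3 and Python 3.11.15, and tables were read with the R package data.table, version 1.17.8.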

Additional observations from a re-analysis of the deposited data

Results flagged for a closer look

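Of the 71 pathway genes measured, 2 met a rule on the difference of ER-MyoD wt minus empty retrovirus. That difference changed sign between 6 h and 24 h, with both differences and their change past the threshold in the limma fit. The share of all genes that meet this rule was not computed, so nothing is read from the count. The change itself passed for 11 of 71, beside 14.7% of all genes. This change from 6 h to 24 h was added after the values were seen, which limits what its p-values can show. For Fabp5 the difference was 0.53 at 6 h and -1.70 at 24 h, a change of -2.22 ± 0.22 (adjusted p = 1.39e-08). All 3 empty retrovirus arrays were higher at 24 h (4694, 7199 and 5956) than at 6 h (2565, 2187 and 3619), and all 3 ER-MyoD wt arrays were lower (1813, 2386 and 1729 against 3950.0, 4971 and 4387). For Rdh11, a retinol dehydrogenase, it was 1.36 and -0.82, a change of -2.18 ± 0.30 (adjusted p = 4.28e-06). Empty retrovirus arrays read 503, 478 and 477 at 24 h and 199.6, 192 and 182 at 6 h, and ER-MyoD wt arrays 325, 229.8 and 251 and 538, 420.4 and 541. The 6 h difference of Fabp5 did not pass in 5 of 16 alternative settings. Groups of 3 arrays are too small to look for single outlying values.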

How the results depend on the processing

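Over the alternative settings, 0 differences of the pathway genes past the threshold changed sign. Of the 96 member differences, which were not tested, 13 changed sign between scalings. The 71 pathway genes were counted 192 times, and 161 counts stayed within 1.5 times. For ER-MyoD RRR minus ER-MyoD wt at 12 h the count of 0 became 1 with pseudocount 64, a mean signal of at least 50, the replicate block or only the arrays compared, and 2 without the 3 arrays that stood apart (0 in each leave-one-out fit). At 24 h the count of 1 became 0 with pseudocount 1, p adjusted over all probe sets, no trend or only the arrays compared, and 2 with a mean signal of at least 50, the replicate block or without the 3 arrays; leaving out 1 array gave 0 to 2. At 6 h the count of 1 became 2 with pseudocount 64, a mean signal of at least 50 or no trend, 3 with the replicate block or without the 3 arrays, and 0 with only the arrays compared; leaving out 1 array gave 0 to 2. For ER-MyoD RRR minus empty retrovirus at 6 h the count of 11 became 5 with only the arrays compared and 4 to 8 with 1 array left out. Where a setting tests fewer genes or arrays, that is part of its construction; otherwise the cause was not tested. Arrays of the same number had a median r of deviations of 0.01 over 135 pairs, 7 of them above 0.1, against -0.01 over 270 other pairs, 6 of them above 0.1. Since most pairs were under 0.1, the numbers were not taken as pairs. Signals near or under the array median, as for Aldh1a2, Aldh1a3, Crabp2, Rara and Rarb, limit what can be seen of those genes. Aldh1a1 exceeded the array median on 9 of 30 arrays, so the same limit holds for it in the groups where it was low.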
